A study of Mus musculus with 12 samples.

Results

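The genes described here are the 10 listed members of the MHC class I presentation pathway and its immunoproteasome: *H2-K1*, *H2-D1*, *B2m*, *Tap1*, *Tap2*, *Tapbp*, *Psmb8*, *Psmb9*, *Psmb10* and *Nlrc5*. They were chosen by symbol from a list written with earlier results of these data known, and each symbol matched 1 of the 49315 genes in the count table. All 10 passed the filter on low counts that left 20290 genes for testing. The measurement was bulk RNA-sequencing of brains from 12 mice at 14 d post-stroke, with 1 library per mouse and 6 mice per group. The study's results section names whole brains as the tissue, whereas its discussion names whole hemispheres. The comparison asked how gene expression in the brain after stroke differed when the transplanted marrow carried *Tet2*-deficient blood stem cells, as in clonal hematopoiesis, where a mutant blood stem cell clone expands. *Tet2* encodes an enzyme that oxidises methylated cytosine in DNA.

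All 12 mice were male CD45.1 Pep Boy recipients, aged 8 to 12 weeks, irradiated with the head shielded and then transplanted with marrow. In the WT group, 10% of the marrow came from CD45.2 *Tet2*+/+ donors and 90% from CD45.1 *Tet2*+/+ donors. In the *Tet2*-KO group, the 10% came instead from CD45.2 *Tet2*-/- donors, and the other 90% again carried intact *Tet2*. After 8 to 10 weeks, both groups had a 30 min occlusion of the middle cerebral artery. The resident brain cells of both groups therefore kept *Tet2*, and no sham-operated library is among the 12. For the *Tet2*-KO mice the labels disagree, since the treatment entry speaks of control cells but the title and genotype say knockout, and the title and genotype were followed here.

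MHC class I molecules display short peptides from the inside of a cell to CD8 T cells and to receptors on natural killer cells. The proteasome cuts proteins into peptides, the TAP transporter carries them into the endoplasmic reticulum, and tapasin holds an empty heavy chain and its light chain near TAP until a peptide is bound. Interferon induces the immunoproteasome subunits, which take the places of 3 catalytic subunits of the proteasome core, and in the brain microglia, endothelial cells and infiltrating leukocytes carry most class I, while neurons carry little.

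Total counts per library lay between 12000261 and 15340787 in WT libraries and between 12625047 and 21049763 in *Tet2*-KO libraries. *Tet2* itself had a mean of 131.7 CPM in WT and 130.9 CPM in *Tet2*-KO mice (log2 fold change -0.01, SE 0.05, edgeR adjusted p = 0.934), in tissue whose resident cells kept the gene. CPM is the count scaled to a common library size after TMM normalization. WT replicate 2 and *Tet2*-KO replicates 1 and 5 stood apart from the other mice of their group in the member genes, and the results that most depend on them are also given without them.

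The promoters of the peptide-binding complex are shown because the heavy chains and the light chain shared an arrangement of motifs. RefSeq windows of 250 bases before the gene start were found for 8 of the 10 genes (build GRCm38.p6), and not for *Tap2* and *Nlrc5*. In 3 of these 8, *H2-K1*, *H2-D1* and *B2m*, the letters TGACG were followed after exactly 20 bases by ATTGG, the reverse complement of CCAAT, on the strand of the gene. These letters are the cores of the X2 and Y boxes, the elements known to recruit the regulatory complex that NLRC5 joins. The same spacing on either strand occurred in 25 of 27025 RefSeq promoter windows of this length (0.0925%), and among the 152 other promoters of the lists used below it occurred only in *H2-M3*. The spacing was looked for after the positions of the single motifs had been seen. In the following stretches, capitals mark both motifs.
H2-K1: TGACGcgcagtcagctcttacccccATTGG
H2-D1: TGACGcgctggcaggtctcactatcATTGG
B2m: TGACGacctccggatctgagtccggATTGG
The *H2-K1* stretch lies at chr17:34000359-34000388 on the minus strand, 12 to 41 bases before the gene start. The *H2-D1* stretch lies at chr17:35262993-35263022 on the plus strand, 72 to 101 bases before its RefSeq start and within an exon annotated by GENCODE, and the *B2m* stretch at chr2:122147609-122147638 on the plus strand, 49 to 78 bases before its start. *H2-K1* and *H2-D1* matched at 23 of the 30 bases, *H2-K1* and *B2m* at 13, and *H2-D1* and *B2m* at 12.

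The single motifs were searched on both strands in the same windows. CCAAT was in 6 of the 8 member promoters (*B2m*, *Tapbp*, *H2-K1*, *Psmb9*, *Tap1* and *H2-D1*) and in 34.5% of all 27025. TGACG was in 5 of the 8 (*B2m*, *H2-K1*, *Psmb9*, *Tap1* and *H2-D1*) and in 17.9% of all. The windows of *Psmb9* and *Tap1* overlap, since their RefSeq starts lie 226 bases apart in opposite directions. Their TGACG is the same site counted for both genes, and so is their CCAAT. GAAANNGAA, a shortened interferon-stimulated response element, was in 1 of the 8 (*B2m*) and in 7.2% of all, and TTCNNNGAA, the gamma-activated sequence, was in 1 of the 8 (*Psmb8*) and also in 7.2% of all. *Psmb10* held none of these letters. The upstream stretches of *B2m* and *Psmb10* that lie outside annotated exons are shown as the windows with 3 of the searched motifs and with none, with all matches in capitals.
B2m, chr2:122147437-122147685, plus strand: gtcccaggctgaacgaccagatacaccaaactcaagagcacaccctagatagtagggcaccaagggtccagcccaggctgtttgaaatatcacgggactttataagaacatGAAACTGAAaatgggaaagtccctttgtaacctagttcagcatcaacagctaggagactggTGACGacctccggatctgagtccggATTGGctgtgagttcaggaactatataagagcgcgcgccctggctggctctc
Psmb10, chr8:105938445-105938642, minus strand: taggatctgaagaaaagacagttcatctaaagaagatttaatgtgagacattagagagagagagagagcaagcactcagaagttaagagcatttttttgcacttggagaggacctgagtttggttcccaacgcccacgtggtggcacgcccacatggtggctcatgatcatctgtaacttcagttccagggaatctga
In the *B2m* window, GAAACTGAA lies 131 to 139 bases before the start. A match of letters is a description of the window, not a site shown to be bound. Elements that differ from the searched letters are missed, so a window without a match may still hold such an element.

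Class I and immunoproteasome transcripts were at lower mean levels in *Tet2*-KO brains, with all 10 log2 fold changes below 0 and a median of -0.88, against a median of 0.01 over all 20290 genes tested. The size was about that of a 2.09-fold lower level for *H2-K1*, a 1.84-fold lower level for *Tap1* and a 1.15-fold lower level for *Psmb10*. No member passed the edgeR quasi-likelihood test at an adjusted p of 0.05, which 5 genes in all passed (0.0246% of those tested). At an unadjusted p of 0.05, 9 of the 10 were lower in the edgeR test, all but *Psmb10*, where 12.2% of all tested genes were lower by that measure. In these bulk brain samples, fewer cells of a type and less RNA per cell cannot be told apart.

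The threshold was sensitive to 1 mouse. Without *Tet2*-KO replicate 5, 8 of the 10 members passed the adjusted threshold of edgeR, where 7.3% of the 20525 genes tested were lower by that measure. The exceptions were *B2m* (adjusted p = 0.0531) and *Psmb10* (adjusted p = 0.177). None of the 10 passed in the 11 edgeR fits that left out each of the other mice. Without both WT replicate 2 and *Tet2*-KO replicate 5, an alternative chosen after the data were seen, 3 passed in edgeR (*Tap2*, *Tapbp* and *Psmb9*, adjusted p = 0.0226, 0.0305 and 0.0295) where 4.94% of genes did so in the lower direction. The count also depended on the tool. The DESeq2 Wald test, the kind of test used by the study, passed 2 members (*Tap2*, adjusted p = 0.0201, and *Psmb9*, adjusted p = 0.0451) where 3.32% of genes passed as lower, and limma-voom with quality weights passed 9, all but *Psmb10*, where 7.01% did.

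**Figure D1:**
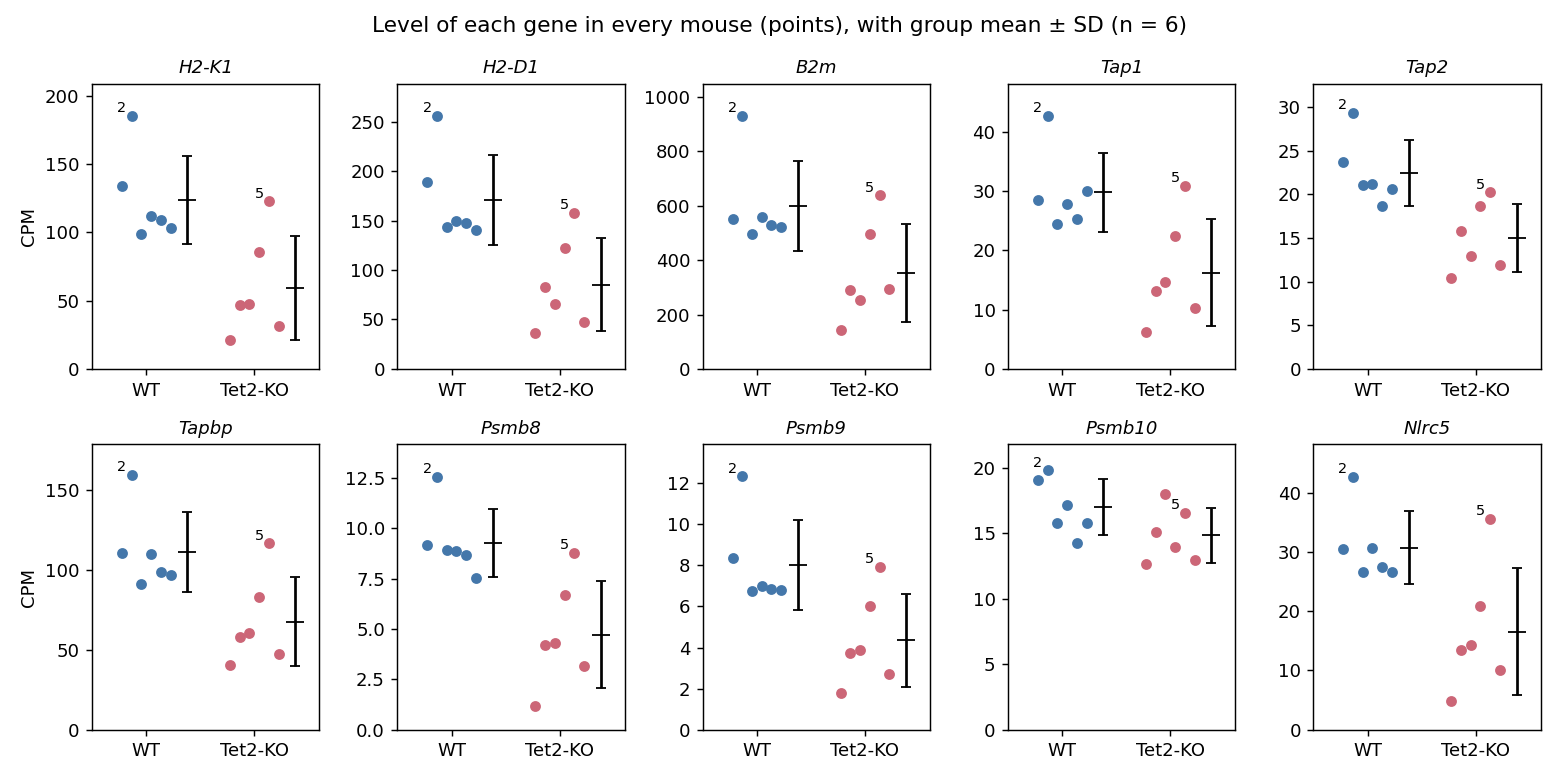
Level in CPM (vertical axis, from 0) of each of the 10 genes in every WT (blue) and *Tet2*-KO (red) mouse, with the group mean ± SD (n = 6) in black beside the points and WT replicate 2 and *Tet2*-KO replicate 5 marked by number. In 9 of the 10 panels 5 *Tet2*-KO mice lie below all WT mice, and the mouse that does not is *Tet2*-KO replicate 5, while *Psmb10* overlaps more. For *B2m* and *Tap2*, *Tet2*-KO replicate 4 is almost level with the lowest WT mouse.

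*H2-K1* and *H2-D1* encode the classical heavy chains, the part of the complex that holds the peptide. *H2-K1* (chr17:33996017-34000347, mm10, minus strand) lay between 98.7 and 185.2 CPM in WT mice, with a median of 110.3, and between 21.5 and 122.6 CPM in *Tet2*-KO mice, with a median of 47.3. WT replicate 2 was the highest and *Tet2*-KO replicate 1 the lowest, and of the *Tet2*-KO mice only replicate 5 reached the WT range. The means were 123.6 ± 32.5 CPM and 59.3 ± 37.9 CPM (SD, n = 6 each), a log2 fold change of -1.06 (SE 0.39, 95% confidence interval -1.91 to -0.21, edgeR adjusted p = 0.154). *H2-D1* (chr17:35262730-35267499, plus strand) ran from 140.6 to 256.1 CPM in WT mice (median 148.3) and from 35.9 to 157.8 CPM in *Tet2*-KO mice (median 74.0). The same *Tet2*-KO mouse, replicate 5, was alone within the WT range. Its means were 171.0 ± 45.4 and 85.3 ± 46.8 CPM (SD, n = 6 each), with a log2 fold change of -1.004 (SE 0.35, edgeR adjusted p = 0.146). Heavy chain genes are alike in sequence, and only uniquely mapped reads were counted. Of the 150-base windows of the longest coding *H2-D1* transcript, 1.8% were identical to another gene, most to *H2-Q1*, and for *H2-K1* none were.

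*B2m* encodes the light chain, beta-2 microglobulin, without which heavy chains do not reach the cell surface. It is at chr2:122147686-122153083 on the plus strand. Its level was 496.1 to 932.4 CPM in WT mice (median 540.7) and 141.5 to 638.8 CPM in *Tet2*-KO mice (median 292.9). WT replicate 2 stood far above the other WT mice, and *Tet2*-KO replicate 5 was above all WT mice but that one. The means were 598.5 ± 165.1 and 352.6 ± 180.9 CPM (SD, n = 6 each) and the log2 fold change was -0.76 (SE 0.33, 95% confidence interval -1.49 to -0.03, edgeR adjusted p = 0.200).

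*Tap1* and *Tap2* together encode the peptide transporter. *Tap1* (chr17:34187553-34197225, plus strand) lay between 24.4 and 42.7 CPM in WT mice (median 28.1) and between 6.196 and 30.9 CPM in *Tet2*-KO mice (median 13.9). Its log2 fold change was -0.88 (SE 0.33, edgeR adjusted p = 0.162). *Tap2* (chr17:34203527-34216321, plus strand) had narrower groups, at 18.7 to 29.3 CPM in WT (median 21.1) and 10.4 to 20.2 CPM in *Tet2*-KO mice (median 14.4). For both transporter genes, 5 mice of the *Tet2*-KO group lay under the WT range. For *Tap2*, *Tet2*-KO replicate 4 was almost level with the lowest WT mouse (18.67 against 18.71 CPM). The *Tap2* means were 22.4 ± 3.74 and 15.0 ± 3.91 CPM (SD, n = 6 each). Its log2 fold change of -0.58 (SE 0.16, 95% confidence interval -0.92 to -0.24) had the smallest p of the 10 genes in edgeR (unadjusted p = 0.0029, adjusted p = 0.118). *Tap2* shares 533 exon bases with *Gm15821* and 165 with *Gm20496* on the opposite strand, and the strand setting of the counting is not given in the sources used here.

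*Tapbp* encodes tapasin, the chaperone that links empty class I molecules to the transporter. *Tapbp* (chr17:33915899-33929292, plus strand) was measured at 91.0 to 159.4 CPM in WT mice (median 104.5) and 40.6 to 116.6 CPM in *Tet2*-KO mice (median 59.1). *Tet2*-KO replicate 5 was above the WT median, and the other 5 of its group lay under the lowest WT mouse. The means were 111.1 ± 24.9 and 67.6 ± 28.1 CPM (SD, n = 6 each), a log2 fold change of -0.72 (SE 0.25, edgeR adjusted p = 0.149). Its exons overlap those of *Gm19412* on the opposite strand by 904 bases and those of *Zbtb22* on the same strand by 149, so part of these reads could not be assigned by position alone.

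*Psmb8*, *Psmb9* and *Psmb10* encode the catalytic subunits that take the places of PSMB5, PSMB6 and PSMB7 in the immunoproteasome. *Psmb8* (chr17:34197721-34201454, plus strand) lay at 7.54 to 12.6 CPM in WT mice (median 8.89) and 1.18 to 8.79 CPM in *Tet2*-KO mice (median 4.27). In *Tet2*-KO replicate 1 this rested on 19 reads. The log2 fold change was -0.98 (SE 0.33, edgeR adjusted p = 0.138). *Psmb9* (chr17:34181987-34187764, minus strand) lay at 6.75 to 12.3 CPM in WT mice (median 6.92) and 1.80 to 7.92 CPM in *Tet2*-KO mice (median 3.82), with a log2 fold change of -0.89 (SE 0.30, edgeR adjusted p = 0.136). For both genes the 5 lowest mice of the 12 were *Tet2*-KO mice other than replicate 5. *Psmb8* shares 498 exon bases with the antisense gene *Gm20496*, and *Psmb9* and *Tap1*, whose RefSeq starts lie 226 bases apart in opposite directions, share 212.

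*Psmb10*, which lies on another chromosome (chr8:105935735-105938444, minus strand), had overlapping groups. Its level was 14.3 to 19.8 CPM in WT mice (median 16.5) and 12.6 to 17.9 CPM in *Tet2*-KO mice (median 14.5), and 3 of the 6 *Tet2*-KO mice lay under the lowest WT mouse. The means were 17.0 ± 2.12 and 14.9 ± 2.10 CPM (SD, n = 6 each), a log2 fold change of -0.20 (SE 0.10, 95% confidence interval -0.41 to 0.02, edgeR adjusted p = 0.262).

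*Nlrc5* encodes the transactivator that drives the promoters of class I heavy chains, *B2m*, *Tap1* and *Psmb9*. *Nlrc5* (chr8:94434356-94527272, plus strand) lay between 26.6 and 42.7 CPM in WT mice (median 28.9) and between 4.89 and 35.5 CPM in *Tet2*-KO mice (median 13.8). *Tet2*-KO replicate 5 was above all WT mice except replicate 2, whereas *Tet2*-KO replicate 1 was at the bottom. The means were 30.7 ± 6.13 and 16.5 ± 10.7 CPM (SD, n = 6 each), a log2 fold change of -0.91 (SE 0.38, 95% confidence interval -1.74 to -0.07, edgeR adjusted p = 0.188).

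**Figure D2:**
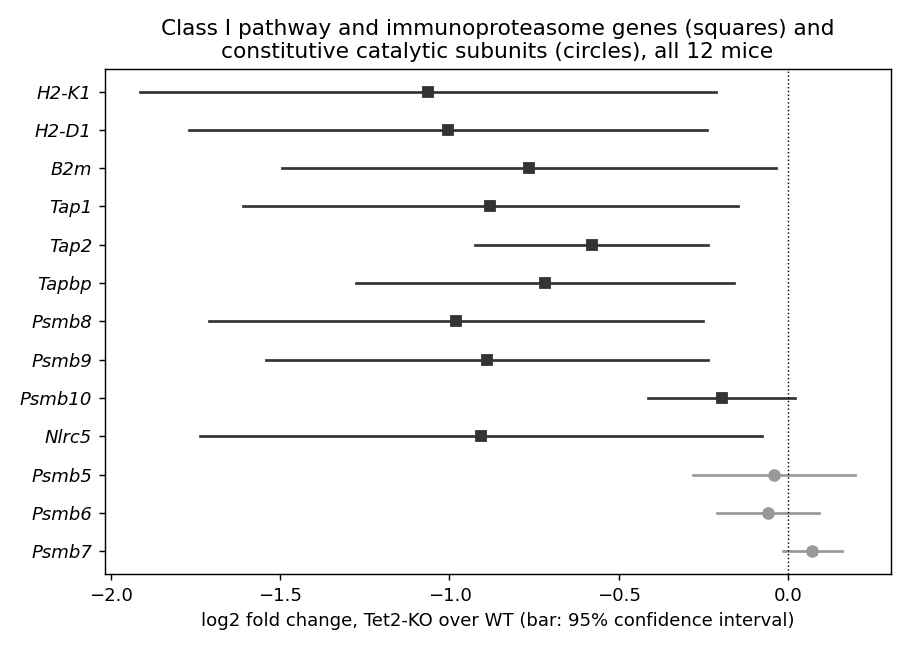
Log2 fold change of *Tet2*-KO over WT (horizontal axis) with its 95% confidence interval for the 10 genes (squares) and for the constitutive subunits *Psmb5*, *Psmb6* and *Psmb7* (circles), n = 6 mice per group. The intervals of 9 genes end below 0, that of *Psmb10* reaches 0.02, and those of the constitutive subunits include 0.

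The constitutive counterparts were near the same level in both groups. *Psmb5* had means of 20.6 ± 2.60 CPM in WT and 20.03 ± 3.47 CPM in *Tet2*-KO mice (SD, n = 6 each), *Psmb6* had 36.6 ± 2.59 and 35.2 ± 3.47, and *Psmb7* had 48.7 ± 1.32 and 51.2 ± 1.55. Their log2 fold changes were -0.04, -0.06 and 0.07, with edgeR adjusted p of 0.864, 0.669 and 0.293. The exchange of subunits was therefore compared within each library, as the log2 of the ratio of counts, each plus 0.5, which does not depend on the scaling between libraries. Over the 8 ratios compared here and in the next paragraphs, exact two-sided permutation tests over all assignments of the mice were adjusted together, and the smallest p that 6 against 6 mice allow is 0.00216.

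*Psmb8* over *Psmb5* was lower in *Tet2*-KO mice. In WT mice the log2 ratio lay between -1.40 and -0.44 (median -1.27), and in *Tet2*-KO mice between -4.19 and -1.15 (median -2.23), with 5 of 6 *Tet2*-KO mice under the lowest WT mouse. In terms of reads, there were 0.449 *Psmb8* reads per *Psmb5* read in WT and 0.203 in *Tet2*-KO mice (geometric means). The difference was -1.14 (exact permutation test, p = 0.0195, adjusted p = 0.039). *Psmb9* over *Psmb6* lay between -2.46 and -1.72 in WT mice (median -2.32) and between -4.35 and -2.14 in *Tet2*-KO mice (median -3.24). Again 5 of 6 lay under the lowest WT mouse, and the difference was -0.94 (exact permutation test, p = 0.0173, adjusted p = 0.039). Both calls were lost when any 1 of the WT mice, *Tet2*-KO replicate 1 or *Tet2*-KO replicate 6 was left out. The differences then lay between -1.19 and -0.77 for *Psmb8* over *Psmb5* and between -0.99 and -0.71 for *Psmb9* over *Psmb6*, with the values nearest to 0 found without *Tet2*-KO replicate 1 (exact permutation tests, adjusted p = 0.0519 to 0.0808).

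*Psmb10* over *Psmb7* lay between -1.77 and -1.25 in WT mice and between -2.02 and -1.58 in *Tet2*-KO mice. All 6 *Tet2*-KO mice were below the WT mean, but the difference of -0.27 did not pass after adjustment (exact permutation test, p = 0.0476, adjusted p = 0.0762). It passed without *Tet2*-KO replicate 5 (difference -0.31, exact permutation test, adjusted p = 0.0396). *Psmb9* over *Psmb8* differed by 0.19 (exact permutation test, p = 0.203, adjusted p = 0.203), so a different change of these subunits, whose genes lie close together in the MHC, was not shown. Without *Tet2*-KO replicate 1, in which *Psmb8* had 19 reads, that difference was 0.06 (exact permutation test, adjusted p = 0.409).

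**Figure D3:**
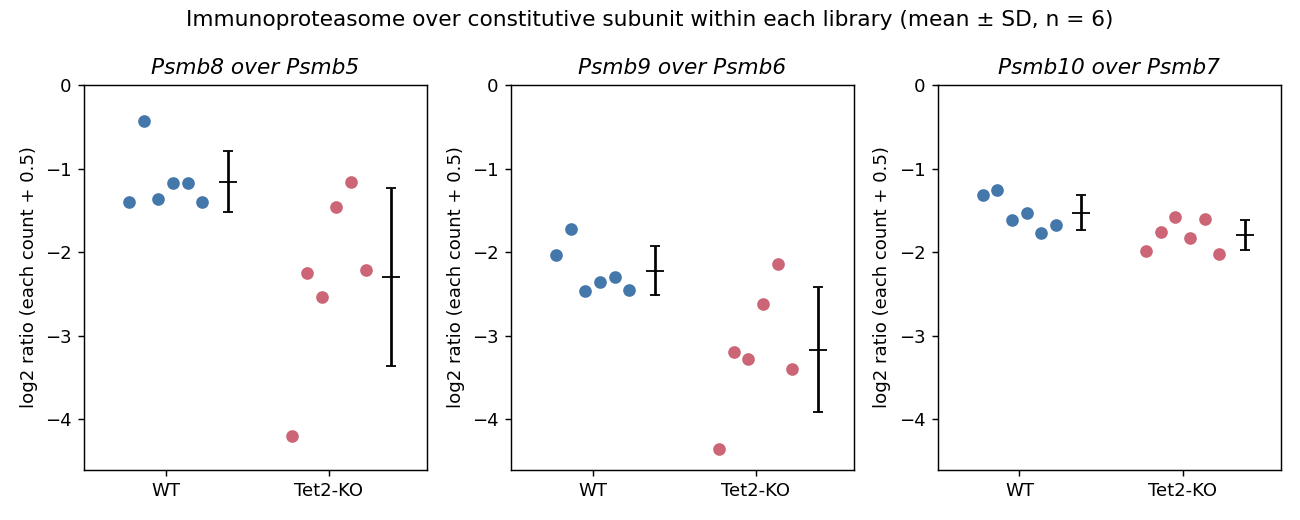
Log2 ratio of reads of each immunoproteasome subunit to the constitutive subunit it replaces (vertical axis, each count plus 0.5) in every WT (blue) and *Tet2*-KO (red) mouse, with mean ± SD (n = 6). The difference between groups is -1.14 for *Psmb8*, -0.94 for *Psmb9* and -0.27 for *Psmb10*, on 1 common scale.

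The ratios within the peptide-binding complex also differed between the groups. *H2-K1* over *B2m* lay between -2.34 and -2.05 in WT mice (median -2.32) and between -3.21 and -2.38 in *Tet2*-KO mice (median -2.59). The highest *Tet2*-KO mouse thus lay under the lowest WT mouse (6 of 6 outside the WT range), a difference of -0.38 (exact permutation test, p = 0.00216, the smallest possible, adjusted p = 0.0173). *H2-D1* over *B2m* lay between -1.90 and -1.55 in WT mice (median -1.85) and between -2.63 and -1.81 in *Tet2*-KO mice (median -1.997), a difference of -0.26 (exact permutation test, p = 0.0152, adjusted p = 0.039). Relative to the light chain, then, there were fewer heavy chain reads in *Tet2*-KO mice, by 0.771 times for *H2-K1* and 0.833 times for *H2-D1*. The call for *H2-K1* over *B2m* held without any 1 of the *Tet2*-KO mice and was lost without any 1 of the WT mice (differences of -0.39 to -0.33, exact permutation tests, adjusted p = 0.0519 to 0.0808). The call for *H2-D1* over *B2m* was lost without any 1 of the WT mice (differences of -0.28 to -0.21, exact permutation tests, adjusted p = 0.0519 to 0.104), without *Tet2*-KO replicate 1 (-0.28, adjusted p = 0.0563) and without *Tet2*-KO replicate 6 (-0.15, adjusted p = 0.0736). *H2-K1* over *H2-D1* differed by -0.11 (exact permutation test, p = 0.188, adjusted p = 0.203) and *Tap1* over *Tap2* by -0.43 (p = 0.0671, adjusted p = 0.0895). Without *Tet2*-KO replicate 5 both passed (differences of -0.15 and -0.56, exact permutation tests, adjusted p = 0.0396 and 0.013).

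The *Tet2*-KO mice differed from each other far more than the WT mice did. The highest *Tet2*-KO level was 7.46 times the lowest for *Psmb8*, 7.26 times for *Nlrc5* and 5.70 times for *H2-K1*, which fell to 2.79, 3.55 and 3.87 times without *Tet2*-KO replicate 1, whereas in WT mice the highest was 1.39 to 1.88 times the lowest for all 10 genes. *Tap2* and *Psmb10* were the exceptions among *Tet2*-KO mice, at 1.94 and 1.42 times. By mouse, the median over the 10 genes of the log2 level relative to the WT mean was -2.21 in *Tet2*-KO replicate 1, -1.07 in replicate 2, -1.07 in replicate 3, -0.41 in replicate 4, -0.01 in replicate 5 and -1.55 in replicate 6. The extremes were shared by the genes, whereas the order of the mice between them was not the same for every gene. *Tet2*-KO replicate 1 was the lowest of the 12 mice for all 10 genes, and WT replicate 2 was the highest for all 10, with a median of 0.52. *Tet2*-KO replicates 1, 4 and 6 lay under the lowest WT mouse for all 10 genes, and replicates 2 and 3 for 9, all but *Psmb10*. For 9 genes, at least 5 *Tet2*-KO mice lay below every WT mouse, a pattern that 5.64% of the 20290 genes showed. *Tet2*-KO replicate 4 was almost level with the lowest WT mouse for *B2m* (495.1 against 496.1 CPM) and *Tap2* (18.67 against 18.71 CPM). No member had all 6 *Tet2*-KO mice below every WT mouse, as 0.641% of genes did.

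**Figure D4:**
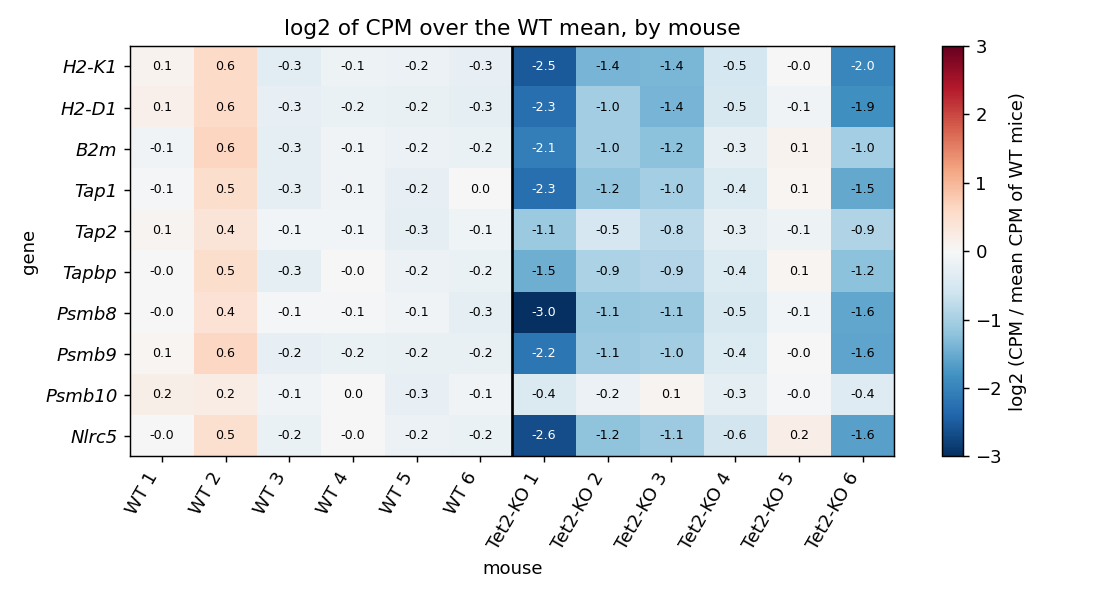
Log2 of the CPM over the mean CPM of the WT mice (colour and printed value) for the 10 genes (rows) in the 12 mice (columns, WT left of the line). *Tet2*-KO replicate 1 is the darkest blue column, *Tet2*-KO replicate 5 is close to 0, WT replicate 2 is red, and the *Psmb10* row is pale in every mouse.

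Within groups, the genes also moved together. The deviation of a gene's log2 CPM from its group mean followed the mean deviation of the other 9 members with a Pearson r of 0.942 to 0.995 over the 12 mice, apart from *Psmb10* with 0.589. By rank, Spearman's rho was lowest for *Psmb10* (0.706) and *B2m* (0.734), followed by *Tap1* (0.818) and *Tap2* (0.867), and lay between 0.916 and 0.979 for the other genes. The 5 genes outside the list whose deviations were most like those of the members were *Unc93b1* (r = 0.997, Spearman rho = 0.972), *Runx1* (r = 0.997, rho = 0.972), *Il10ra* (r = 0.996, rho = 0.986), *Wdfy4* (r = 0.995, rho = 0.944) and *Nckap1l* (r = 0.994, rho = 0.979). These correlations are descriptions over 12 libraries, whose values share the depth, the scaling and the cell makeup of each library.

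Per kilobase of merged exon, the light chain was far above the rest of the pathway. In WT mice *B2m* had 696 ± 192 CPM per kb, followed by *H2-D1* with 66.3 ± 17.6, *H2-K1* with 42.1 ± 11.1 and *Tapbp* with 30.6 ± 6.86 CPM per kb (SD, n = 6). *Psmb10* had 9.96 ± 1.24, *Tap2* 5.94 ± 0.99, *Tap1* 5.44 ± 1.22, *Nlrc5* 3.62 ± 0.722, *Psmb8* 2.75 ± 0.503 and *Psmb9* 2.19 ± 0.601 CPM per kb. These lengths are of all exons of a gene merged, which for several genes is well above the length of 1 transcript. Per kilobase of the longest coding transcript, *Tap1* (10.1 ± 2.26) came above *Tap2* (6.52 ± 1.09), and *Psmb9* (5.93 ± 1.63) and *Psmb8* (5.70 ± 1.04) above *Nlrc5* (4.05 ± 0.809), all in CPM per kb, so the order below *Psmb10* depends on the length used. On both lengths *B2m*, *H2-D1*, *H2-K1*, *Tapbp* and *Psmb10* came in this order, and the intervals of mean ± SD were separate between *B2m* and *H2-D1* and between *Tapbp* and *Psmb10* and overlapped between *H2-D1* and *H2-K1*. In *Tet2*-KO mice *B2m* had 410 ± 210 CPM per kb on either length. On merged exons, the constitutive subunits were at 22.9 (*Psmb5*), 19.6 (*Psmb6*) and 14.2 (*Psmb7*) CPM per kb in WT mice, above the subunits that replace them.

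The other genes of the pathway were taken from lists of known components. Of 6 genes for peptide loading and trimming, 3 were lower in edgeR at an unadjusted p of 0.05, against 12.2% of all tested genes, and none higher, with a median log2 fold change of -0.24. They included *Erap1*, the peptidase that trims peptides in the endoplasmic reticulum (25.4 ± 4.92 CPM in WT, 17.8 ± 5.202 in *Tet2*-KO, log2 fold change -0.51, edgeR adjusted p = 0.155), and *Calr*, the chaperone calreticulin (-0.26, adjusted p = 0.129). Of 5 activators and assembly factors of the proteasome, 2 were lower and none higher. These were *Psme1* and *Psme2*, the subunits of the interferon-induced activator PA28, with log2 fold changes of -0.38 and -0.49 (edgeR adjusted p = 0.138 and 0.110). Of the 14 genes of the constitutive proteasome core, 1 was lower, *Psma6* (-0.15, edgeR adjusted p = 0.151), and none higher, with a median of -0.03. None of these genes passed the adjusted threshold.

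Of 21 further class I heavy chain genes, 16 were tested, and 12 of these were lower at an unadjusted p of 0.05 in edgeR, against 12.2% of all tested genes, and none higher, with a median log2 fold change of -0.57. *H2-M9* had no count in any mouse. *H2-Q7*, a non-classical chain, had 11.3 ± 2.57 CPM in WT and 4.49 ± 3.15 CPM in *Tet2*-KO mice (log2 fold change -1.35, edgeR adjusted p = 0.121), and *H2-Q6* had a log2 fold change of -0.91 (adjusted p = 0.157). Both are uncertain, since copies of the Q region are near-identical and their reads may not map uniquely.

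Among 22 regulators of the pathway, 15 were lower at an unadjusted p of 0.05 in edgeR, against 12.2% of all tested genes, and none higher, with a median of -0.30. *Irf1*, an interferon-induced activator of class I promoters, had 18.7 ± 3.61 CPM in WT and 10.9 ± 3.44 CPM in *Tet2*-KO mice (log2 fold change -0.78, SE 0.19, edgeR adjusted p = 0.110). *Irf8*, a transcription factor of myeloid cells, had a log2 fold change of -0.92 (adjusted p = 0.179). The interferon ligands were close to undetected. None of 10 passed the filter, 4 had no count in any mouse, and *Ifng* had 7 reads in the 6 WT libraries together and 4 in the 6 *Tet2*-KO libraries, too few to compare. Most of the ligand reads were of *Ifnk*, with 41 in the WT and 39 in the *Tet2*-KO libraries together, and 4 to 10 in each library. Of 16 receptors that bind class I, 15 were found in the table and 5 were tested, of which 4 were lower and none higher, with a median log2 fold change of -1.21. The filter can admit a gene with few reads through 1 group alone, so this count need not hold for the untested receptors. *Pirb*, an inhibitory receptor of myeloid cells, had 17.1 ± 6.05 CPM in WT and 4.93 ± 3.85 CPM in *Tet2*-KO mice (log2 fold change -1.82, edgeR adjusted p = 0.116). *Klrk1*, the activating receptor NKG2D, had 2.23 ± 0.465 CPM in WT and 0.752 ± 0.789 CPM in *Tet2*-KO mice (-1.63, edgeR adjusted p = 0.115).

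Markers of the cells that carry class I were set beside these values. The summed level of the 10 member genes was 933 to 1693 CPM in WT mice and 277 to 1156 CPM in *Tet2*-KO mice. Markers of phagocytes of any origin, such as *Aif1*, *Cd68* and *Ptprc*, summed to 503 to 939 CPM in WT and 156 to 608 CPM in *Tet2*-KO mice, with 5 of 6 lower at an unadjusted p of 0.05 in edgeR, against 12.2% of all tested genes. Homeostatic microglia markers, such as *P2ry12* and *Tmem119*, summed to 603 to 1082 and 309 to 800 CPM, with 0 of 8 lower and none higher (median log2 fold change -0.15). By mouse, from replicate 1 to 6 of the *Tet2*-KO group, the microglia markers summed to 309, 571, 482, 800, 773 and 492 CPM and the member genes to 277, 544, 496, 875, 1156 and 472 CPM. In the WT mice, likewise, the microglia markers summed to 674, 1080, 645, 603, 631 and 692 CPM and the member genes to 1106, 1693, 933, 1042, 984 and 972 CPM. The member sum was above the microglia sum in all 6 WT mice, and in *Tet2*-KO replicates 3, 4 and 5 only.

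Of further myeloid and lymphoid markers, those of monocytes summed to 26.7 to 56.8 CPM in WT and 1.80 to 36.8 CPM in *Tet2*-KO mice (5 of 5 lower), and those of activated phagocytes, a state that microglia also take, to 809 to 1989 and 57.6 to 1231 CPM (6 of 7 lower). Here lower means an unadjusted p of 0.05 in edgeR, by which 12.2% of all tested genes were lower. Neutrophil markers summed to 70.2 to 156 and 20.9 to 78.9 CPM (4 of 4 tested lower, 7 listed). Most of this sum was *Csf3r*, with means of 83.1 CPM in WT and 45.7 CPM in *Tet2*-KO mice (log2 fold change -0.86, edgeR adjusted p = 0.165). *S100a8* and *S100a9*, which were among the 5 genes past the adjusted threshold of edgeR, were lower by more (-2.16 and -2.84, adjusted p = 0.0364 for both). The untested neutrophil markers had few reads and did not show such a drop. *Mpo* had means of 0.302 CPM in WT and 0.304 CPM in *Tet2*-KO mice, and *Retnlg* had 0.576 and 0.509 CPM. *Ly6g* had 2 reads in the WT libraries together and 0 in the *Tet2*-KO libraries, too few to compare. T cell markers summed to 18.2 to 27.5 and 11.03 to 17.6 CPM (5 of 6 tested lower, 10 listed), the only one of these sums without overlap between the groups. Natural killer cell markers summed to 6.03 to 10.97 and 0.496 to 8.24 CPM (2 of 3 tested lower, 7 listed) and B cell markers to 5.03 to 11.8 and 2.62 to 5.57 CPM (2 of 2 tested lower, 5 listed). A marker with few reads can pass the filter through 1 group alone, so counts of tested markers need not hold for the whole lists.

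Other brain cells were measured in the same way. Fibroblast markers summed to 488 to 1179 CPM in WT and 88.2 to 639 CPM in *Tet2*-KO mice (5 of 5 tested lower, 6 listed), reactive astrocyte markers to 1199 to 3142 and 486 to 2144 CPM (3 of 6 lower) and endothelial markers to 276 to 339 and 255 to 306 CPM (3 of 8 lower). Of all tested genes, 12.2% were lower by the same measure. Choroid plexus markers summed to 496 to 653 and 399 to 685 CPM (1 of 4 lower), oligodendrocyte markers to 4823 to 6315 and 4479 to 6262 CPM (0 of 6 in either direction) and astrocyte markers to 5000 to 5150 and 4956 to 5597 CPM (0 of 6 lower and 1 higher). Neuronal markers summed to 3872 to 5459 and 5050 to 6574 CPM, with 8 of 8 higher at an unadjusted p of 0.05 in edgeR, where 10.8% of all genes were, and red blood cell markers to 21.2 to 31.5 and 27.4 to 41.2 CPM (3 of 5 higher). No marker was without a count in all 12 libraries. The part of these cell types in the levels of the class I and immunoproteasome genes was not tested.

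**Figure D5:**
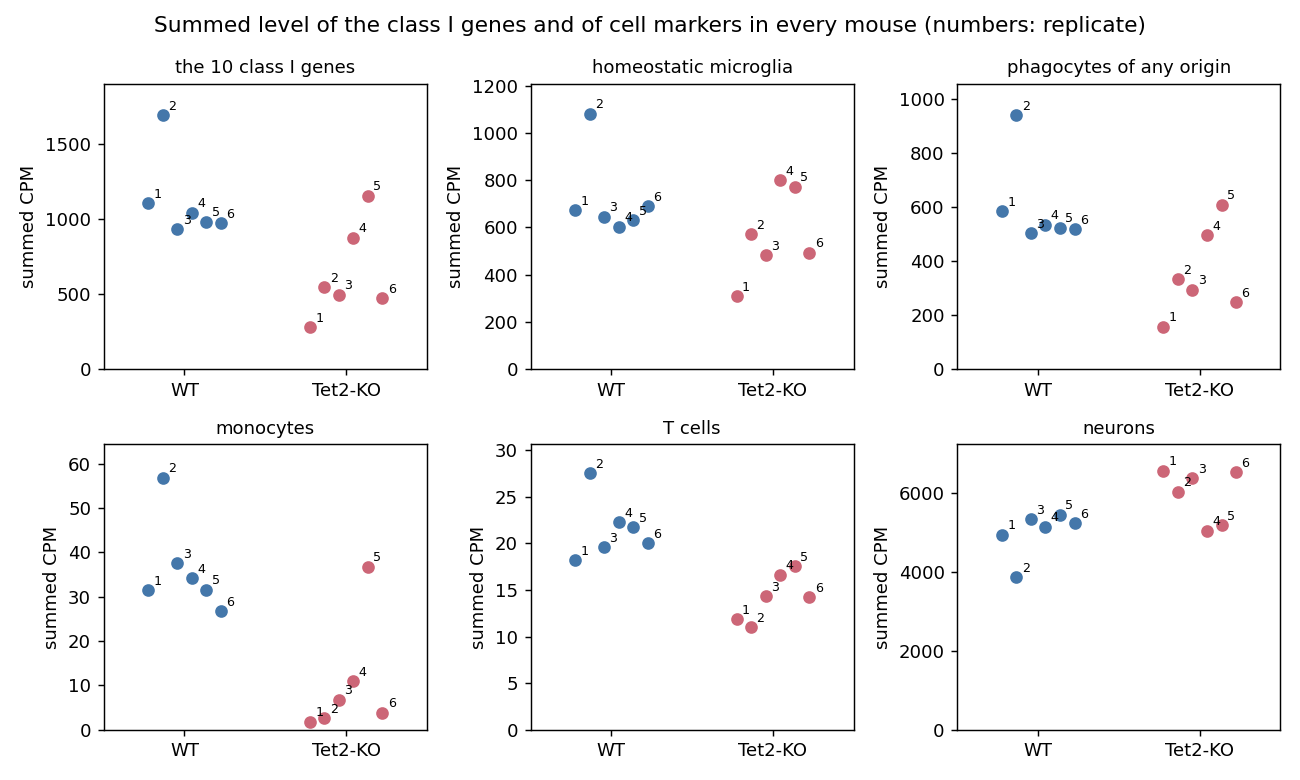
Summed CPM (vertical axis, from 0) of the 10 class I and immunoproteasome genes and of 5 marker lists in every WT (blue) and *Tet2*-KO (red) mouse, with the replicate number beside each point. *Tet2*-KO replicate 5 lies within the WT range for the member genes and for monocytes, *Tet2*-KO replicate 4 lies high for microglia markers and low for monocyte markers, and all *Tet2*-KO mice lie below the WT mice for T cells.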

How the data were processed

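Brains of 12 mice at 14 d post-stroke were studied, 6 per group as given by the titles and genotype entries. The authors depleted ribosomal RNA, used Trimmomatic 0.36 for trimming, STAR 2.5.2b for alignment to mm10 and featureCounts of Subread 1.5.2 for uniquely mapped exon reads, per the submitters' processing notes, and deposited raw counts per gene without normalization. The strand setting is not given in the sources used here. The table has 49315 genes, and GENCODE M21 gave symbols for 48970, with positions and exon lengths. Depth was 12000261 to 21049763 counts per library, so genes with few reads, such as *Psmb8* with 19 in 1 mouse, carry wide counting error.

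Counts were filtered with filterByExpr, scaled by TMM and tested with edgeR 4.0.16 (quasi-likelihood F test, all 12 libraries, no covariates) in R 4.3.3, with Benjamini-Hochberg adjustment over all genes tested and a threshold of 0.05. SE is the log2 fold change over the square root of F. Within-library ratios used a pseudocount of 0.5 and exact permutation tests (scipy 1.17.1). The fits and the permutation test were tested on simulated data. Alternatives were DESeq2 1.42.0 (Wald test, or its size factors in edgeR), limma-voom 3.58.1 with quality weights, upper quartile scaling, no filter, at least 10 counts in every library, a replicate block, a ratio pseudocount of 2, and each library left out in turn. Promoters came from RefSeq (GRCm38.p6), and protein sequences were not used here. *Csf3r*, *S100a8*, *S100a9*, *Mpo*, *Retnlg*, *Ly6g*, *Trbc2* and *Ifnk* were named after their values were seen. The other named genes were the 10 members, *Psmb5* to *Psmb7*, up to 2 genes per direction with the largest change at an unadjusted p of 0.05 in each pathway list, and the 5 with the most similar deviations. The members and lists were chosen with earlier results of these data known.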

Additional observations from a re-analysis of the deposited data

Results flagged for a closer look

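Of 42 groups of 6 mice examined, the 10 genes and 3 constitutive subunits in CPM and the 8 ratios in both groups, 11 held a mouse whose gap to its neighbour was large for the range of its group by Dixon's criterion at 95%, which chance gives in about 1 in 20 groups. Since the genes move together in each mouse, these are not independent of each other.

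WT replicate 2 was the highest of its group for *B2m* (932 CPM), *Tap1* (42.7 CPM), *Tapbp* (159 CPM), *Psmb8* (12.6 CPM), *Psmb9* (12.3 CPM) and *Nlrc5* (42.7 CPM), and for the log2 ratio of *Psmb8* over *Psmb5* (-0.436). WT replicate 1 stood above the other WT mice in the log2 ratios of *H2-K1* over *B2m* (-2.05) and *H2-D1* over *B2m* (-1.55). In the *Tet2*-KO group, replicate 1 was high in the log2 ratio of *Psmb9* over *Psmb8* (0.597), where *Psmb8* had 19 reads, and replicate 6 was low in that of *H2-D1* over *B2m* (-2.63).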

How the results depend on the processing

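All 10 member genes kept a log2 fold change below 0 in every alternative run. Members past the adjusted threshold numbered 0 in edgeR, 2 in DESeq2, 9 in limma-voom, 3 without WT replicate 2 and *Tet2*-KO replicate 5 together, and 0 to 8 when 1 library was left out. Over all genes, 5 passed in edgeR, 898 in DESeq2, 2013 in limma-voom, 44 with no filter, 0 with at least 10 counts in every library, 1554 without that pair of mice, and 0 to 2257 with 1 library left out. Members lower at an unadjusted p of 0.05 in edgeR numbered 6 without WT replicate 2, where 7.92% of all genes were lower, to 10 without *Tet2*-KO replicate 5, where 14.6% were, and their median log2 fold change ranged from -1.13 to -0.712, the latter without *Tet2*-KO replicate 1.

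With 1 library left out, the log2 ratios ranged from -1.37 to -0.766 (*Psmb8* over *Psmb5*), -1.15 to -0.707 (*Psmb9* over *Psmb6*), -0.318 to -0.214 (*Psmb10* over *Psmb7*), 0.0618 to 0.23 (*Psmb9* over *Psmb8*), -0.557 to -0.286 (*Tap1* over *Tap2*), -0.155 to -0.0624 (*H2-K1* over *H2-D1*), -0.429 to -0.262 (*H2-K1* over *B2m*) and -0.315 to -0.15 (*H2-D1* over *B2m*). Without WT replicate 2 and *Tet2*-KO replicate 5 together, *Tap1* over *Tap2* passed (-0.528, exact permutation test, adjusted p = 0.0476) and *H2-D1* over *B2m* did not (-0.285, adjusted p = 0.0726), while *H2-K1* over *B2m* moved to -0.44. The cause of these changes was not tested.

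Mice of both groups carry the numbers 1 to 6, but same-numbered mice did not deviate together (correlations of -0.169 to 0.229). These correlations cannot show whether the mice were paired, and the main tests treated them as unpaired. With a replicate block no gene and no member passed (0 and 0), and the log2 ratios of *Psmb8* over *Psmb5* (-1.14), *Psmb9* over *Psmb6* (-0.945), *H2-K1* over *B2m* (-0.375) and *H2-D1* over *B2m* (-0.263) had an adjusted p of 0.125 by exact sign flips of 6 pairs, whose smallest p is 0.0312. Only mouse 6 of the WT group correlated best with its own number.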
